A study of Mus musculus with 8 samples.

Results

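Neutrophils store much of their antimicrobial equipment as protein, and 10 mouse genes for such proteins are described here in lung tissue: S100a8, S100a9, Ngp, Ltf, Camp, Lcn2, Mmp8, Cd177, Mpo and Elane. They were taken by name as granule and cytosol proteins of different classes, by a rule that holds no measured level, though with earlier results of these data known, and are 10 of the 52636 genes counted. S100a8 and S100a9 encode the subunits of calprotectin, a cytosolic calcium- and metal-binding complex. Mpo (myeloperoxidase) and Elane (neutrophil elastase) encode proteins of the early-made azurophil granules. Ngp, Ltf (lactoferrin, which binds iron), Camp (the precursor of the cathelicidin peptide), Lcn2 (lipocalin 2, which binds bacterial siderophores), Mmp8 (neutrophil collagenase) and Cd177 (a surface and granule glycoprotein) are late-made.

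Granules are filled in the bone marrow in an order set by the time at which each gene is transcribed. Azurophil granule genes are transcribed in promyelocytes, specific granule genes in myelocytes and metamyelocytes, and the calprotectin genes up to the mature stage. A neutrophil that has left the marrow therefore carries early-made granule proteins with little of their mRNA, and Lcn2 and Ltf can also be transcribed by airway epithelium.

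The 8 lung RNA libraries came from 4 groups of wild-type C57BL/6 male mice, with 2 libraries a group. Control mice were given PBS into the trachea. The COPD mice model, called COPD mice below, was given porcine pancreatic elastase (PPE), which damages alveolar walls, followed by lipopolysaccharide (LPS). Either kind was fed a control diet (control-fed) or food with the herbal medicine hochuekkito (TJ-41-fed), which began before PPE. The labels name the lung, the treatments and a replicate number, and they do not give the time of collection, the age or the number of mice behind a library, so p-values measure the spread between these libraries only.

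The libraries held 18767295 to 20888042 counts, and levels are given as CPM, counts relative to a library size that was scaled by trimmed mean of M values (TMM). A count of 3, the most that a count of 0 allows, was 0.153 to 0.162 CPM, for counting error alone. Markers of lung epithelium were high in all 8 libraries, with 9494 to 25891 CPM of Sftpc (surfactant protein C) and 11566 to 28838 CPM of Scgb1a1 (the club cell secretory protein). The control-fed COPD libraries differed most from each other, with a standard deviation of their log2 differences over genes of 0.611, against 0.273 to 0.333 in the other groups. Replicate 2 of that group had the highest Sftpc and Scgb1a1 and, of 8 libraries, the lowest summed level of 13 mature neutrophil genes, 136 CPM.

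The genes lie on 6 chromosomes of GRCm38. S100a8 (chr3:90668978-90670035, plus strand) and S100a9 (chr3:90692632-90695721, minus strand) are neighbours 22597 bases apart. Ngp, Ltf, Camp and Mmp8 are all on chromosome 9, and the others are each alone on theirs. No other annotated gene overlaps them except an antisense gene, Gm11505, within Mpo. Of the 50-base sequences in their transcripts, 5.51% in Cd177 and 9.46% in Mpo also occur in transcripts of other genes, and 0 of those of the other 8 do, so counts of Cd177 and Mpo are less certain where reads were shared.

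Promoter sequences are shown for S100a8 and S100a9, whose levels varied together among libraries, for Mmp8, which shared their lowest and highest libraries, for Cd177, which differed between groups, and for Elane, which was nearly undetected. They are RefSeq sequences of GRCm38.p6, written 5′ to 3′ on the gene's strand, and hold up to 250 bases before the RefSeq start that lie outside annotated exons. Capitals mark a PU.1-type sequence, GAGGAAGT or its reverse complement ACTTCCTC, or a C/EBP-type sequence, TTGCNNAA or TTNNGCAA. PU.1 and the C/EBP proteins are transcription factors of the granulocyte lineage. The windows are chr3:90668821-90668977 (S100a8, plus strand), chr3:90695722-90695971 (S100a9, minus strand), chr9:7558179-7558428 (Mmp8, plus strand), chr7:24760312-24760561 (Cd177, minus strand) and chr10:79886062-79886246 (Elane, plus strand).
S100a8: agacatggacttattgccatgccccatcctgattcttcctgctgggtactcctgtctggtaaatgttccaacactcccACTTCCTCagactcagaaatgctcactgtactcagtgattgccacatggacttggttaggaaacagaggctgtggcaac
S100a9: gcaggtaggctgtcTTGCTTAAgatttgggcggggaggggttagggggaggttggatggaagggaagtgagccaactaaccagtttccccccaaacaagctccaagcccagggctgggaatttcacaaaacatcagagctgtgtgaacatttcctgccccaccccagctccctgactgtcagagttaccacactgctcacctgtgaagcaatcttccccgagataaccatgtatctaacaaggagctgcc
Mmp8: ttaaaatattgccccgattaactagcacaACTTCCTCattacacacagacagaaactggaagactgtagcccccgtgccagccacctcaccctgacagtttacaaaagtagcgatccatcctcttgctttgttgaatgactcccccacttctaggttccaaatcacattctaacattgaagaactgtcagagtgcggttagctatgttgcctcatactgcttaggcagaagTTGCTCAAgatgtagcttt
Cd177: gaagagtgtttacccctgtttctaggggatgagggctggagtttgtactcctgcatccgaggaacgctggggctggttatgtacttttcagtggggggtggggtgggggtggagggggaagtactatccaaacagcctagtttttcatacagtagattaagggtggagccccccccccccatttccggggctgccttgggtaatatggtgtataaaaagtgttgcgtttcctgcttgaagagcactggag
Elane: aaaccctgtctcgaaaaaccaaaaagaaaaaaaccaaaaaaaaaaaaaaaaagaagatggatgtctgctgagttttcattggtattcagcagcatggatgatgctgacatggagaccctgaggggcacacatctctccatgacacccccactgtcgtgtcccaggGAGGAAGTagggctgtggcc

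All 10 genes had a promoter in the RefSeq table, each a window of 300 bases that ends 50 bases after the start. The PU.1-type sequence was in 4 of the 10 (S100a8, Mmp8, Mpo and Elane) and in 3.2% of all 32851 promoters of that length. The C/EBP-type sequence was in 5 of the 10 (S100a9, Mmp8, Lcn2, Ltf and Ngp) and in 10.8% of all promoters, and the 2 motifs do not overlap in Mmp8, the gene with both. In Lcn2 it began at position -216 from the RefSeq start, in a stretch that GENCODE annotates mostly as exon of longer transcripts. The motifs were chosen after the sequences had been seen, and a match describes letters, not binding.

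The genes differed by orders of magnitude in level, also within the late-made class. Per kilobase of annotated exon, a scale that allows genes to be compared, the mean over 8 libraries was 137 CPM for S100a9, 101 for Lcn2 and 63.8 for S100a8. Cd177 followed at 4.47, Ltf at 4.30 and Mmp8 at 2.62 CPM per kilobase. Ngp was at 0.354, Camp at 0.128, Elane at 0.00649 and Mpo at 0.00564 CPM per kilobase. S100a9 was above S100a8 in each library, while the ranges of Lcn2 (35.2 to 339) and S100a9 (50.1 to 276) overlapped, as did those of Cd177 (1.18 to 11.9) and Ltf (1.23 to 7.32). Mpo and Elane were at or under the 3-count limit in all 8 libraries, so their order is not established. Late-made Camp was at or under that limit too.

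**Figure D1:**
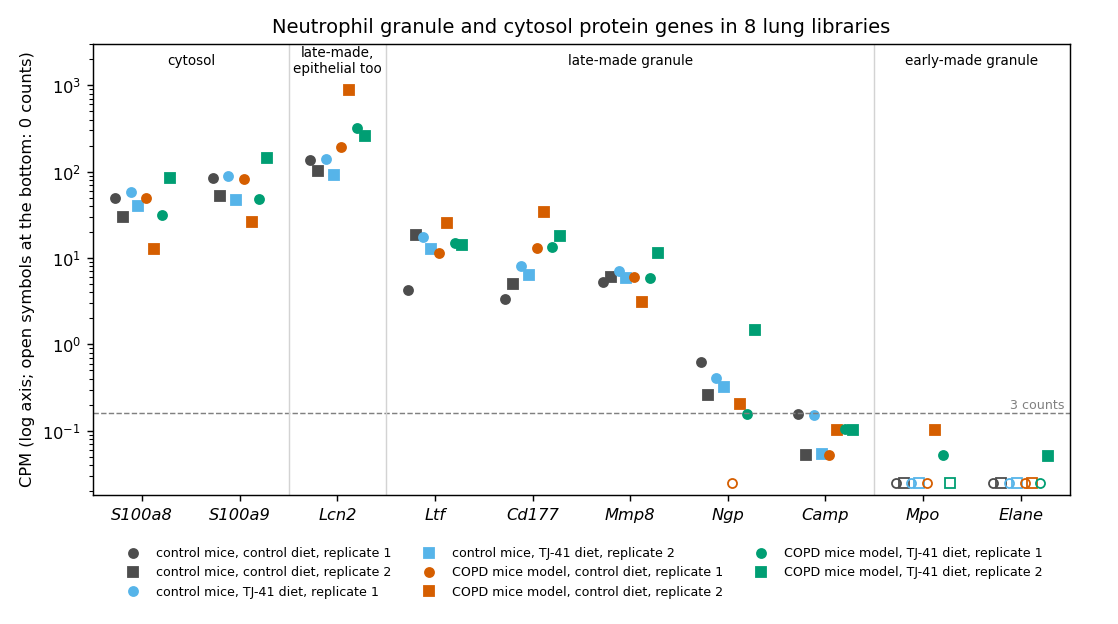
CPM of the 10 genes in each library on a log axis, with colour for the group, shape for the replicate number, open symbols at the bottom for 0 counts and a dashed line at 3 counts. Lcn2 and Cd177 are higher in the 4 COPD libraries than in the 4 of control mice, the cytosolic genes overlap between groups, and Mpo and Elane stay under the line.

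Early-made genes were all but absent from the lung. Mpo had 0 counts in 6 libraries, 2 counts in replicate 2 of control-fed COPD mice and 1 count in replicate 1 on the TJ-41 diet. Elane had 1 count in all, in replicate 2 of TJ-41-fed COPD mice. Neither was tested. Of the other azurophil protease genes listed, Ctsg (cathepsin G) was at 0.102 CPM at most, and Prtn3 (proteinase 3), which lies beside Elane, ranged from 0.104 to 0.715 CPM. Prtn3 was the 1 tested gene of this list of 4 and was not called, at a log2 fold change of 0.36 (SE 0.62) for COPD mice with the diets averaged.

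Late-made genes were detected at levels that separated them into abundant and scarce ones. Camp had 1 to 3 counts in each library, 15 in all, and was not tested. Ngp, a cystatin-like granule protein gene, was at 0.627 and 0.259 CPM in control-fed control mice and at 0.409 and 0.324 CPM on the TJ-41 diet. Among COPD mice Ngp was at 0 and 0.205 CPM on the control diet and at 0.156 and 1.48 CPM on the TJ-41 diet, where 29 of its 67 counts fell in replicate 2. The groups overlapped for Ngp, and 1 library stood above all others.

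The contrast of the classes is a description without a test. Mpo and Elane together gave 0 to 2 counts a library, while Ngp, Ltf, Camp, Mmp8 and Cd177 together gave 261 to 1220. The mean log2(CPM + 1) of these 5 exceeded that of Mpo and Elane by 1.61 to 2.02 in control-fed control mice and by 1.99 to 2.22 on the TJ-41 diet. Among COPD mice it did so by 2.07 to 2.39 on the control diet and by 2.17 to 2.61 on the TJ-41 diet. With early-made genes near 0 throughout, this difference follows the late-made genes.

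Lcn2, counted among the late-made genes but shared with epithelium, stood above the other 5 in each library per kilobase of exon. It was at 135 and 100 CPM in control-fed control mice, and at 140 and 92.3 CPM on the TJ-41 diet. COPD mice had 193 and 889 CPM on the control diet, and 318 and 255 CPM on the TJ-41 diet. All 4 COPD libraries lay above all 4 of control mice, with a wide spread between the 2 on the control diet. Its log2(CPM + 1) exceeded the mean of the 5 by 4.56 to 5.47 in control mice and by 5.35 to 7.34 in COPD mice, on a scale that is not divided by gene length.

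Cd177 was also higher in COPD mice on both diets. It was at 3.34 and 5.03 CPM in control-fed control mice, and at 8.19 and 6.37 CPM on the TJ-41 diet. COPD mice had 13.2 and 33.8 CPM on the control diet, and 13.5 and 18.1 CPM on the TJ-41 diet. Again the 4 COPD libraries lay above the 4 of control mice. Of the 7 genes tested, Lcn2 and Cd177 were the 2 with no overlap in this direction, and 3.35% of the 20546 genes tested had none.

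The fit across all genes called 1 of the 7 tested genes in COPD mice against control mice with the diets averaged, where 0.443% of all genes tested were called, at a false discovery rate (FDR) below 0.05 with a log2 fold change above 1 in size. Cd177 rose by a log2 fold change of 1.80 (SE 0.30, adjusted p = 0.0442 in the quasi-likelihood test of edgeR, Benjamini-Hochberg adjustment). Lcn2 had a log2 fold change of 1.75 (SE 0.40) and did not pass in that test (adjusted p = 0.126), while DESeq2 called it (adjusted p = 0.0284). Over the 6 alternatives that kept all 8 libraries the adjusted p ran from 1.79e-07 in DESeq2 to 0.0508 for Cd177, with 4 calling it, and from 0.00315 to 0.226 for Lcn2, with 2 calling it. The call for Cd177 was lost when any 1 of the 4 control mice libraries or either library of TJ-41-fed COPD mice was left out (adjusted p 0.0984 to 0.298). Without replicate 2 of control-fed COPD mice, the library highest for both genes, edgeR called Cd177 at 1.39 (adjusted p = 0.00434) and Lcn2 at 1.02 (adjusted p = 0.0115). Without replicate 1 of that group it called Cd177 at 2.07 (adjusted p = 0.000189) and Lcn2 at 2.11 (adjusted p = 0.00013).

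**Figure D2:**
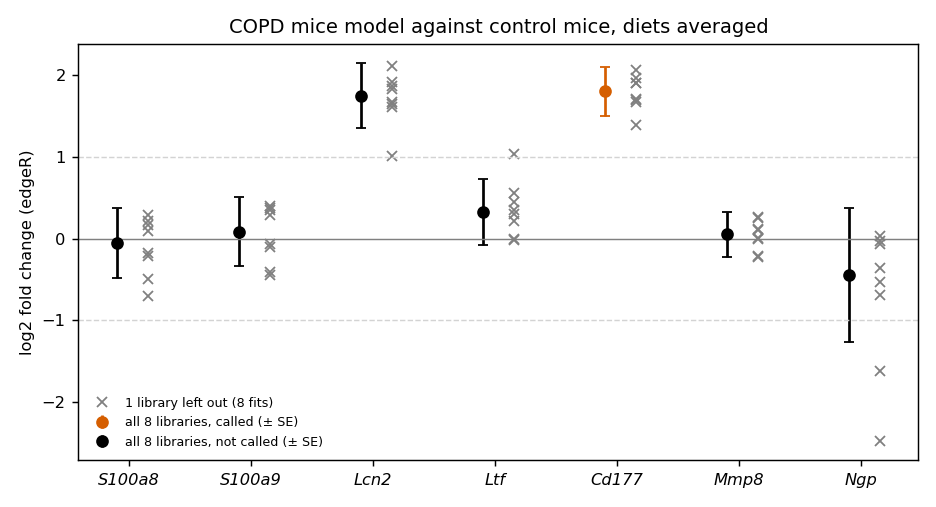
Log2 fold change (COPD mice against control mice, diets averaged) of the 7 tested genes from edgeR with all 8 libraries (circles, bars ± SE) and with 1 library left out (crosses, 8 fits each). Cd177 at 1.80 and Lcn2 at 1.75 stay above 1 in each fit, and the crosses of S100a8, S100a9, Ltf, Mmp8 and Ngp lie on both sides of 0.

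On each diet alone 0 of the 7 were called by edgeR's quasi-likelihood test, with 0.122% of all genes called on the control diet and 0.0779% on the TJ-41 diet. Lcn2 and Cd177 were the 2 with an unadjusted p under 0.05 on either diet. On the control diet the log2 fold change was 2.20 (SE 0.57) for Lcn2 and 2.49 (SE 0.44) for Cd177. There DESeq2 called 1 of the 7, Cd177, and 174 of all 20546 genes tested. On the TJ-41 diet the log2 fold change was 1.30 (SE 0.56) for Lcn2 and 1.12 (SE 0.42) for Cd177, and DESeq2 called 0 of the 7 and 125 of all genes. With 1 library left out, the log2 fold change on the control diet ran from 0.72 to 2.91 for Lcn2 and from 1.66 to 3.01 for Cd177. On the TJ-41 diet it ran from 1.03 to 1.64 for Lcn2 and from 0.90 to 1.32 for Cd177.

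The other late-made genes of the 7 tested, Mmp8, Ltf and Ngp, overlapped between COPD mice and control mice. Mmp8 was at 5.28 and 6.02 CPM in control-fed control mice, and at 7.06 and 5.94 CPM on the TJ-41 diet. COPD mice had 6.04 and 3.12 CPM on the control diet, and 5.94 and 11.3 CPM on the TJ-41 diet. Its lowest and highest libraries both belonged to COPD mice, and its log2 fold change with the diets averaged was 0.05 (SE 0.27, not called).

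Ltf was at 4.23 and 18.4 CPM in control-fed control mice, and at 17.4 and 12.7 CPM on the TJ-41 diet. COPD mice had 11.6 and 25.3 CPM on the control diet, and 15.1 and 14.1 CPM on the TJ-41 diet. The library with the least Ltf, replicate 1 of control-fed control mice, also had the least Muc5b, a mucin gene of secretory airway cells, at 9.30 CPM against 64.2 to 92.0 CPM in the other 7. Muc5b was named for this after its values had been seen, and its part in the Ltf value was not tested. The log2 fold change was 0.33 (SE 0.41) for Ltf and fell on the other side of 0 for Ngp, at -0.44 (SE 0.82), and neither was called.

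S100a8 and S100a9, the cytosolic genes, did not separate the groups. S100a8 was at 50.1 and 29.6 CPM in control-fed control mice, and at 57.7 and 39.5 CPM on the TJ-41 diet. COPD mice had 50.1 and 12.7 CPM on the control diet, and 31.1 and 83.8 CPM on the TJ-41 diet. The lowest and the highest library were both of COPD mice. S100a9 was at 85.3 and 51.5 CPM in control-fed control mice, and at 88.3 and 46.8 CPM on the TJ-41 diet. COPD mice had 82.4 and 26.2 CPM on the control diet, and 48.3 and 144 CPM on the TJ-41 diet. With the diets averaged the log2 fold change was -0.05 (SE 0.43) for S100a8 and 0.09 (SE 0.43) for S100a9, and neither was called. In bulk tissue, fewer neutrophils and less of these mRNAs per neutrophil cannot be told apart.

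The calprotectin genes varied together among libraries. Of the 45 pairs of the 10 genes, S100a8 and S100a9 were the 1 pair with an adjusted p under 0.05 for Pearson's r of log2(CPM + 1), at r = 0.962 over 8 libraries (exact permutation p = 0.000645, Benjamini-Hochberg adjusted over the 45 pairs 0.029). Spearman's rho was 0.881 (exact permutation p = 0.00724, adjusted 0.163), and r was 0.890 without the 2 libraries farthest from the median of S100a8. The S100a9 to S100a8 ratio of CPM stayed between 1.18 and 2.07. S100a8 and Mmp8 had r = 0.887 (exact permutation p = 0.0126, adjusted 0.141) and rho = 0.786 (exact permutation p = 0.0279, adjusted 0.402), with r = 0.266 without the 2 farthest libraries, so that relation rests on them. For Lcn2 and Cd177 the COPD libraries lay apart from those of control mice, so an r over all 8 also holds that difference. It was 0.892 (exact permutation p = 0.00275, adjusted 0.0619), and r of the deviations from group means was 0.789.

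**Figure D3:**
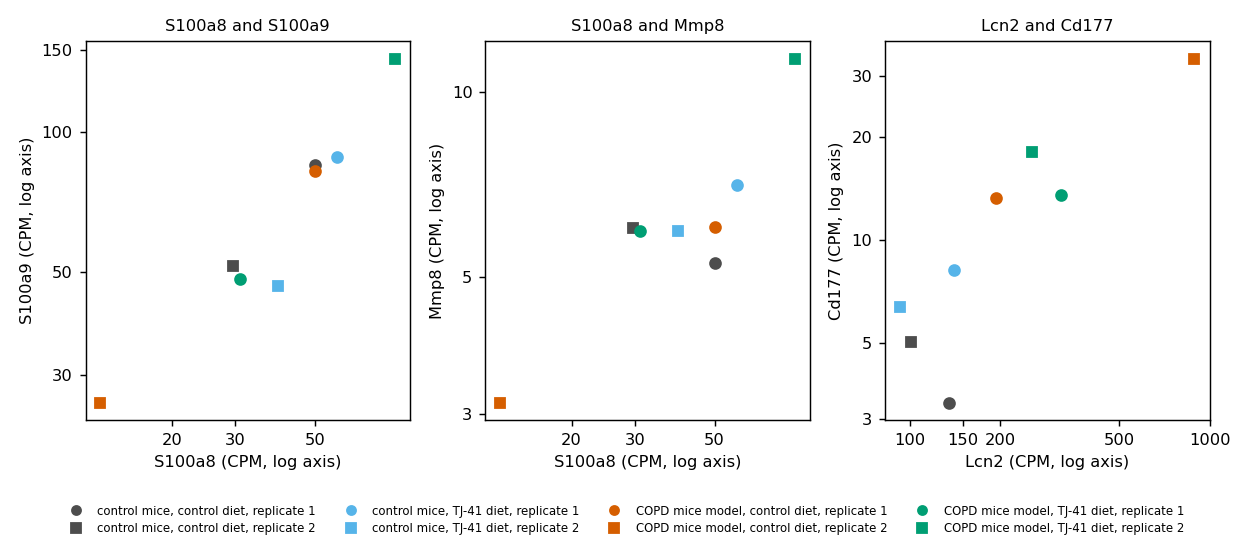
CPM of S100a9 and of Mmp8 against S100a8, and of Cd177 against Lcn2, 1 point per library on log axes, with colour for the group and shape for the replicate number. S100a8, S100a9 and Mmp8 are all lowest in replicate 2 of control-fed COPD mice and highest in replicate 2 on the TJ-41 diet, whereas Lcn2 and Cd177 are highest in the former.

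The Lcn2 to S100a8 ratio of CPM shows how far these genes parted within a library. It was 2.69 and 3.40 in control-fed control mice, 2.43 and 2.34 on the TJ-41 diet, 3.86 and 70.3 in control-fed COPD mice, and 10.2 and 3.04 on the TJ-41 diet. The highest ratio belonged to the library with the most Lcn2 and the least S100a8. The Cd177 to S100a8 ratio ranged from 0.0668 to 2.67, the Ltf to S100a8 ratio from 0.0846 to 2.00 and the Mmp8 to S100a8 ratio from 0.105 to 0.247. Each of these was also highest in that library.

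The genes most like S100a8 over the 8 libraries, of 20546 tested and by Pearson's r of log2(CPM + 1) as a description, were Stfa2l1 (0.969, a stefin A family gene), Gm15160 (0.968), S100a9 (0.962), Gcnt1 (0.951, a glycosyltransferase) and Nlrp12 (0.951, a regulator of inflammatory signalling in myeloid cells). Those most like Lcn2 were Chil1 (0.993, chitinase-like protein 1), Gm6522 (0.988), Mettl7a1 (0.987), Klk14 (0.979) and Pes1 (0.977). Chil1 ranged from 718 to 2678 CPM, and all 5 were highest in replicate 2 of control-fed COPD mice. Mmp8 ranked 62nd by likeness to S100a8 and Cd177 478th by likeness to Lcn2. The genes most like Ngp were Gm6140 (0.985), Pcyox1 (0.945), Gm44211 (0.938), Gm14382 (0.933) and Lrfn3 (0.931), which rests on 67 counts of Ngp and on its 1 high library. No likeness was computed for Mpo, which was not tested.

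The TJ-41 diet left no called gene among the 7. In control mice edgeR's quasi-likelihood test called 0 of 7, with 0 at an unadjusted p under 0.05, DESeq2 called 0, and 0% of all genes tested were called. Among COPD mice it called 0 of 7, with 2 at an unadjusted p under 0.05, DESeq2 called 0, and 0.00487% of all genes were called. These 2 were Ngp, at a log2 fold change of 2.92 (SE 1.21), and Mmp8, at 0.91 (SE 0.39), both with an adjusted p of 0.991 in edgeR's quasi-likelihood test. Lcn2 was at -0.92 (SE 0.55) and Cd177 at -0.57 (SE 0.40), and for all 4 genes the libraries of the diets overlapped. Without replicate 1 of control-fed COPD mice the lone replicate 2 was compared with the TJ-41 libraries. The log2 fold change was then 2.18 for S100a8, 1.47 for Mmp8, -1.63 for Lcn2 and -1.09 for Cd177.

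The diet effects of COPD mice and of control mice were also compared with each other. The test of that difference called 0 of 7, with 1 (Cd177) at an unadjusted p under 0.05, DESeq2 called 0, and 0% of all genes tested were called by edgeR's quasi-likelihood test. The difference was -1.37 (SE 0.59) for Cd177 and -0.90 (SE 0.78) for Lcn2 on the log2 scale.

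Genes of the same granule classes were taken from lists written by hand, which also hold the genes studied here. The 12 late-made specific granule genes include Ngp, Ltf, Camp, Lcn2, Mmp8 and Cd177, and 9 were tested. With the diets averaged 1, Cd177, was called and 4 had an unadjusted p under 0.05 in edgeR's quasi-likelihood test. Of all 20546 genes tested, 0.443% were called and 2134 had such a p. The median log2 fold change was 0.33 beside -0.00165 over all genes tested. In 4 of these 9 all COPD libraries lay above all of control mice: Lcn2, Cd177, Chil3 and Pglyrp1, the last named after its values had been seen. The same held for 3.35% of all genes tested, for 2 of 11 epithelial acute response genes (Saa3, named after its values were seen, and Reg3g), for 1 of 12 mature neutrophil genes (Fpr2) and for 1 of 3 eosinophil, basophil and mast cell genes (Prg2), and for 0 in the other lists. Chil3 (a chitinase-like protein also made by alveolar macrophages) was at 371 to 475 CPM in control mice and at 624 to 1385 CPM in COPD mice, with a log2 fold change of 1.31 (SE 0.24, not called by edgeR, called by DESeq2). Pglyrp1, a peptidoglycan recognition protein gene, was at 6.16 to 8.57 CPM in control mice and at 10.2 to 22.0 CPM in COPD mice.

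Genes of later neutrophil stages did not pass the test. Of the 13 cytosolic and mature neutrophil genes 12 were tested and 0 were called with the diets averaged (1 at an unadjusted p under 0.05 in edgeR's quasi-likelihood test), with a median log2 fold change of -0.08. Fpr2, a formyl peptide receptor, was at 0.52 (SE 0.19) and Padi4, which citrullinates histones, at -0.47 (SE 0.32). The summed level of the 13 was 236 to 281 CPM in control-fed control mice, 237 to 319 on the TJ-41 diet, 136 and 305 in control-fed COPD mice, and 218 and 445 on the TJ-41 diet. Its lowest and highest libraries were those of S100a8, which is itself part of this sum, as is S100a9. All 5 gelatinase granule and secretory vesicle genes were tested and 0 were called (0 at an unadjusted p under 0.05), with a median of 0.10, Mmp25 at 0.25 (SE 0.20) and Itgam, a subunit of the adhesion receptor Mac-1, at 0.20 (SE 0.19).

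Regulators and partners of the granule proteins did not pass the test. Of 8 granulopoiesis regulators 6 were tested and 0 were called (1 at an unadjusted p under 0.05), with a median of 0.27, Cebpa at 0.28 (SE 0.11) and Cebpb at 0.52 (SE 0.27). Cebpe, the C/EBP factor needed for specific granules, was at 0.208 CPM at most and was not tested. Of 8 receptors, activators and inhibitors all were tested and 0 were called (2 at an unadjusted p under 0.05), with a median of -0.0222, Slpi, which inhibits elastase, at 0.92 (SE 0.27) and Itgb2, the shared subunit of leukocyte integrins, at 0.54 (SE 0.17).

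**Figure D4:**
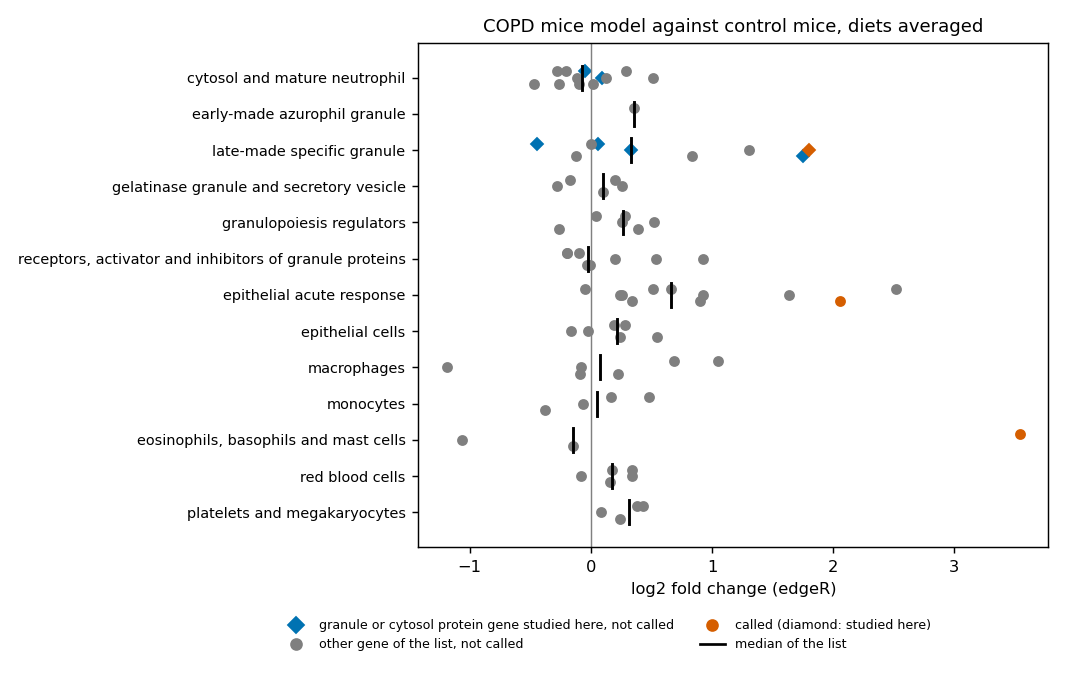
Log2 fold change (COPD mice against control mice, diets averaged) of the tested genes of each list, with diamonds for the genes studied here, orange for called genes and a bar at each list's median. Cd177, Reg3g and Prg2 are the 3 called genes, and Lcn2 lies beside Cd177.

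Epithelial genes bear on Lcn2, since epithelium also transcribes it. Of 13 epithelial acute response genes 11 were tested and 1 was called (6 at an unadjusted p under 0.05), where 0.443% of all genes tested were called. This was Reg3g, an antibacterial lectin gene, which rose by 2.06 (SE 0.32, adjusted p = 0.0342 in the quasi-likelihood test of edgeR, Benjamini-Hochberg adjustment). The call for Reg3g was lost without any 1 control mice library or replicate 1 of TJ-41-fed COPD mice (adjusted p 0.105 to 0.232), and over the 6 alternatives with all 8 libraries its adjusted p ran from 2.06e-09 to 0.075. Lrg1 was at 1.64 (SE 0.40, not called), and the median of the 11 was 0.66. Of the 6 epithelial cell genes 0 were called (0 at an unadjusted p under 0.05), with a median of 0.22, Sftpc at 0.55 (SE 0.24) and Krt18 at 0.28 (SE 0.17). Their summed level was 29858 and 35981 CPM in control-fed control mice, 29586 and 29531 on the TJ-41 diet, 23572 and 55414 in control-fed COPD mice, and 28097 and 31739 on the TJ-41 diet. The library with the most Lcn2 thus also had the highest summed epithelial level, most of which was Scgb1a1 and Sftpc. The part of epithelial content in the Lcn2 value was not tested.

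Markers of other cells were set beside these values. All 6 macrophage genes were tested and 0 were called (2 at an unadjusted p under 0.05), with a median of 0.0727, Siglecf at -1.19 (SE 0.31, called by DESeq2) and Cd68 at 0.68 (SE 0.19). All 4 monocyte genes were tested and 0 were called (1 at an unadjusted p under 0.05), with a median of 0.0481, Cd14 at 0.48 (SE 0.21) and F13a1 at -0.38 (SE 0.37). Of 5 eosinophil, basophil and mast cell genes 3 were tested and 1 was called (1 higher and 1 lower at an unadjusted p under 0.05), with a median of -0.15. This was Prg2, a granule protein gene of eosinophils, which rose by 3.54 (SE 0.61, adjusted p = 0.0492 in the quasi-likelihood test of edgeR, Benjamini-Hochberg adjustment), while Cpa3, a mast cell protease gene, was at -1.06 (SE 0.30, called by DESeq2). The call for Prg2 was lost without any 1 control mice library or replicate 1 of TJ-41-fed COPD mice (adjusted p 0.0505 to 0.31), and over the 6 alternatives with all 8 libraries its adjusted p ran from 5.41e-08 to 0.0572. The defining eosinophil gene Epx was at 0.104 CPM at most.

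Markers of marrow and blood stayed uncalled. Of the 6 bone marrow precursor genes described, 5 were matched in the files and 0 passed the filter on low counts, and Ms4a3, a gene of the granulocyte and monocyte precursors, had at most 1 count. All 5 red blood cell genes were tested and 0 were called (0 at an unadjusted p under 0.05), with a median of 0.18, Hba-a1 and Hba-a2 both at 0.34 (SE 0.35). Their summed level was highest, at 3751 CPM, in replicate 2 of control-fed COPD mice and ran from 873 to 2732 CPM in the other 7. For the TJ-41 diet among COPD mice, where Lcn2 was at -0.92 and Cd177 at -0.57, 0 of the 5 were called by edgeR or DESeq2 and 4 were lower at an unadjusted p under 0.05 in edgeR (median log2 fold change -1.23), and their part in those values was not tested. All 4 platelet and megakaryocyte genes were tested and 0 were called (1 at an unadjusted p under 0.05), with a median of 0.31, Pf4 at 0.38 (SE 0.17) and Gp1bb at 0.43 (SE 0.42). In the lists of neutrophil stages, regulators, receptors, epithelial cells, monocytes and blood, where edgeR called 0, DESeq2 also called 0 with the diets averaged. The part of blood content and of other leukocytes in the levels of the 10 genes was not tested.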

How the data were processed

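RNA was extracted from mouse lungs and sequenced with standard Illumina protocols, per the labels. The authors deposited raw counts, whole numbers of reads per Ensembl gene and library, without normalization, aligned to mm10 (GRCm38). The submitters' processing notes name HISAT2 and edgeR, and the paper names CLC Genomics Workbench. How reads were counted, on which annotation release, with which strand setting, and what was done with reads shared between genes is not given in the sources used here. Unstranded counting would add antisense reads to a gene, and shared reads would be lost or split between copies.

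Groups came from the sample labels, which write the diet as TJ41 in the title and as TJ4 in another field. Of 52636 identifiers 52489 were matched to GENCODE M21 for names, positions and exon lengths. The analysis used edgeR 4.0.16 (R 4.3.3): filterByExpr (minimum count 10, minimum total count 15) kept 20546 genes, TMM scaled the libraries, and the quasi-likelihood test was run on the means of the 4 groups over all 8 libraries with 4 residual degrees of freedom. Benjamini-Hochberg adjustment covered all genes tested, and a gene was called below an FDR of 0.05 where its log2 fold change exceeded 1 in size. Correlations used log2(CPM + 1) and exact two-sided permutation tests.

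The 10 genes, the lists and the rule for named genes were chosen with earlier results of these data known. The rule named all 10 genes, each list's called genes and its 2 tested genes with the smallest unadjusted p with the diets averaged, and the 5 genes most like S100a8, Ngp, Mpo and Lcn2. Scgb1a1, Ctsg, Cebpe, Epx, Ms4a3, Pglyrp1, Saa3 and Muc5b were named outside the rule, after their values had been seen. Another listed marker, with its result, is not reported here. In simulated data with 200 changed genes among 20546, for COPD against control mice, both control-fed, the quasi-likelihood test recovered 98 of 100 genes changed 4-fold and 100 of 100 changed 8-fold, and called 11 unchanged genes. The simulation drew every gene and group with the same spread (biological coefficient of variation 0.208) and changed no genes of low level. It did not hold the wider difference between the control-fed COPD libraries, so its recovery does not carry over to these data. Alternatives were DESeq2 1.42.0, edgeR's exact test, relative log expression (RLE) size factors or library size alone in place of TMM, keeping genes from 1 count on or from a mean of 1 CPM on, fitting only the groups compared, a replicate block, each library left out, a pseudocount of 0.1 CPM, and whole lists. Replicates differed by 11.5 to 84.5 times the counting variance, so no library was a copy.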

Additional observations from a re-analysis of the deposited data

How the results depend on the processing

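The directions of the log2 fold changes of the 7 tested genes held under all alternatives that kept the 8 libraries, and the number of the 10 genes called depended on the test, the filter and single libraries. With the diets averaged (1 called), DESeq2 and the fit on all genes with at least 1 count called 2, and the mean of at least 1 CPM and the replicate block called 0 (Cd177 at adjusted p = 0.0508 and 0.0507 in edgeR's quasi-likelihood test). In that order these fits called 249, 278, 75 and 74 of all genes, against 91 in the main fit. Leaving out 1 library gave 0 to 2. On the control diet 0 were called, beside 25 of all genes. DESeq2 called 1 (174 of all genes), the fit on all genes with at least 1 count 2 (147), and edgeR's exact test 2 (210). On the TJ-41 diet 0 were called, beside 16 of all genes, and the fit on only the groups compared called 2 (248 of all genes). For the diet effect among COPD mice fits without 1 library called 0 to 4. The calls that arose without replicate 1 or 2 of control-fed COPD mice treat the lone library of that group as varying like the other groups, and 873 and 214 of all genes were then called with the diets averaged, against 91. The cause was not tested.

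Without 1 library the log2 fold change with the diets averaged ran from -0.71 to 0.29 for S100a8, -0.44 to 0.40 for S100a9, -2.48 to 0.0301 for Ngp, -0.0171 to 1.04 for Ltf and -0.22 to 0.26 for Mmp8. For the diet effect among COPD mice it ran from -1.63 to 0.57 for Lcn2 and -1.09 to 0.26 for Cd177, and for the difference between the diet effects from -1.60 to 0.59 for Lcn2.

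Replicate numbers did not pair the libraries, with correlations of replicate differences between groups of -0.256 to 0.158, so a call lost with the replicate block is not read as a weaker effect. The block moved the count of all genes called with the diets averaged from 91 to 74.

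The mean excess of late-made over early-made genes, 2.14 on the log2(CPM + 1) scale, was 4.39 with a pseudocount of 0.1 CPM and 3.03 with whole lists, and that of Lcn2 over late-made genes, 5.49, was 6.43 and 4.50. These sizes depend on the pseudocount because early-made genes are near 0, and the libraries without a count of Mpo or Elane allow a level of up to 0.162 CPM.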
